A study of Mus musculus with 12 samples.

Results

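The 7 genes described here, Hmgcs1, Idi1, Fdft1, Sqle, Lss, Cyp51 and Insig1, were chosen by symbol out of 31208 genes listed in a long-read RNA-seq table of mouse brain. Of the 7, 6 encode enzymes of cholesterol synthesis, Insig1 encodes a sterol-dependent brake on the same pathway, and no gene of cholesterol uptake is among them. Brain RNA came from 12 C57BL/6 mice aged 8 weeks, in 3 groups of 4 mice. The sham mice had no ischemia. The other 2 groups had cerebral ischemia for 6 h, by occlusion of the left middle cerebral artery, after an intracerebroventricular injection of vehicle (vehicle mice) or lactate (lactate mice) before the surgery. The labels name lactate without its form and the study's methods name D-lactate, and neither names an injection for the sham mice. Genes were measured as counts of nanopore cDNA reads and as CPM (counts per 1000000 counts of that mouse), with 6815920 to 10677224 counts per mouse. The bulk tissue held markers of neurons, astrocytes, oligodendrocytes and microglia in every mouse, with none of these markers at 0.

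Cholesterol does not cross from the blood into the brain in useful amounts, so the brain makes its own, from acetyl-CoA through mevalonate, squalene and lanosterol. Myelin holds most of it, and astrocytes supply neurons. The genes of the pathway are transcribed under the membrane-bound factor SREBP-2 (gene Srebf2): when sterols in the endoplasmic reticulum run low, its escort protein Scap carries it to the Golgi, where it is cut loose to enter the nucleus, and when sterols are plentiful Insig1 and Insig2 hold it back. Insig1 is itself a target of SREBP.

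All 7 are protein-coding genes. On mouse build GRCm38, Hmgcs1 (ENSMUSG00000093930) lies at chr13:119690379-119708260 on the plus strand and Idi1 (ENSMUSG00000058258) at chr13:8885501-8892451, also plus. Fdft1 (ENSMUSG00000021273) lies at chr14:63145150-63179578 on the minus strand, Sqle (ENSMUSG00000022351) at chr15:59315077-59331192 on the plus strand and Lss (ENSMUSG00000033105) at chr10:76531588-76557138 on the plus strand. Cyp51 (ENSMUSG00000001467) at chr5:4081145-4104746 on the minus strand and Insig1 (ENSMUSG00000045294) at chr5:28071363-28078662 on the plus strand share a chromosome but not a neighbourhood. In the annotation deposited with the table, the pathway name Steroid biosynthesis is attached to 19 genes, of which 4 are Cyp51, Fdft1, Lss and Sqle. Terpenoid backbone biosynthesis is attached to 26 genes, of which 2 are Hmgcs1 and Idi1.

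Because the 7 genes went up and down together between mice, as described further on, their promoters were searched for 3 motifs of sterol-responsive promoters on both strands. Windows of 300 bases, from 250 before to 50 after the start site, were taken from RefSeq on GRCm38.p6, and 5 of the 7 genes had one (Hmgcs1, Idi1, Lss, Cyp51 and Insig1). The sterol regulatory element was searched as TCACNCCAC, the E-box as CACGTG and the NF-Y box as CCAAT, and no matches of different motifs overlapped in these windows. The 250 bases before the start are printed 5′ to 3′ for Hmgcs1 (chr13:119690101-119690350, plus strand), the one of the 5 with the sterol regulatory element, for Insig1 (chr5:28071162-28071411, plus strand), with the E-box, and for the pair most correlated over the mice, Idi1 (chr13:8885356-8885605, plus strand) and Cyp51 (chr5:4104698-4104947, minus strand). Capitals mark the motifs, and ATTGG is CCAAT read on the other strand.
Hmgcs1: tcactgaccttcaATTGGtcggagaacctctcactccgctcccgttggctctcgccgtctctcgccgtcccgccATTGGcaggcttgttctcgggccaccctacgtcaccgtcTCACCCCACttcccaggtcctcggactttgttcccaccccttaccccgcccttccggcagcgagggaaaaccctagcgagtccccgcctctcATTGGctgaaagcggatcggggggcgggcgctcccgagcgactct
Insig1: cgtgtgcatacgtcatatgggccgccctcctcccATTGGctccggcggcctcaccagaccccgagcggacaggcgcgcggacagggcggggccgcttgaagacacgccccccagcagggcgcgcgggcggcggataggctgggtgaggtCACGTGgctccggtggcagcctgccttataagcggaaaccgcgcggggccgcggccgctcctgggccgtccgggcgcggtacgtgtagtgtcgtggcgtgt
Idi1: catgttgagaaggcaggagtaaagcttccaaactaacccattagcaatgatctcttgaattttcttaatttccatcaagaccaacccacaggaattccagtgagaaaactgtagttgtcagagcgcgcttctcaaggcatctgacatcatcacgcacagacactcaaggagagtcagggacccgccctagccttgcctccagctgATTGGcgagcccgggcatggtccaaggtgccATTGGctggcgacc
Cyp51: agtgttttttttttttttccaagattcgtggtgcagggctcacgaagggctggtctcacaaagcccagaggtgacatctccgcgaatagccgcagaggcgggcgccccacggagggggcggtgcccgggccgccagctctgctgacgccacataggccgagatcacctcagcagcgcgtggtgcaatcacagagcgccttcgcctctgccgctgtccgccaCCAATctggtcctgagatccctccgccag

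The Hmgcs1 window held TCACCCCAC at bases 114 to 122, counted from the first base printed, and 4 CCAAT boxes, of which 1 lies past the start site and is not printed. The Insig1 window held CACGTG at bases 150 to 155 and 1 CCAAT box. Idi1 had 2 CCAAT boxes, Cyp51 1 and Lss 1. CCAAT was thus present in 5 of the 5 windows, against 37.4% of 32851 mouse promoter windows of the same length. Windows of other synthesis genes held it too, whether or not the gene followed the 7 over the mice. They ranged from Sc5d, with a Pearson correlation of 0.94 to the mean of the 7, to Lbr, with −0.36. The window of Acat2 (−0.12) had no such box. A link between the box and the shared course was not tested. The sterol regulatory element letters occur in 1.24% of those windows and the E-box in 7.15%. A match describes the letters only, and a window without one says only that these letters are not in it.

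Against sham, Hmgcs1 rose 1.54-fold in the vehicle mice and Fdft1 rose 1.52-fold in the lactate mice. These were the only calls among the 7 genes in the 3 comparisons, where a call is an adjusted p under 0.05 in edgeR's quasi-likelihood test on every gene that passed the filter, adjusted after Benjamini and Hochberg. In bulk tissue, fewer cells of a type and less RNA per cell cannot be told apart, and this holds for each level given here. Both comparisons with sham use the same 4 sham mice, so their values stand side by side and do not support each other.

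Hmgcs1 encodes the cytosolic HMG-CoA synthase, an early enzyme of the mevalonate route. The 4 sham mice had 242, 241, 229.5 and 238 CPM. The vehicle mice had 379, 319.8, 430.0 and 304 CPM, and the lactate mice 235, 482, 336 and 219.7 CPM, each in the order of mouse 1 to 4. Every vehicle mouse was above every sham mouse, whereas lactate mice 1 and 4 lay within or below the sham range and mice 2 and 3 above it. The sham mice were nearly alike, with an SD of 2.39% of the mean against 2.29% from counting error alone, and the spread was 16.1% among vehicle mice and 37.9% among lactate mice. The mean was 238 ± 5.68 CPM in sham (SD, n = 4), 358 ± 57.6 in vehicle and 318 ± 121 in lactate mice. Hmgcs1 rose in the vehicle mice, with a log2 fold change of 0.63 ± 0.13 (SE; 95% interval 0.35 to 0.90; edgeR adjusted p = 0.0295). That call was lost without any 1 of the 4 sham mice or without vehicle mouse 3 (adjusted p between 0.0749 and 0.121), while the log2 fold change stayed between 0.54 and 0.65. It was also lost with all 12 mice in 1 fit (adjusted p = 0.135) and with the replicate number as a block (adjusted p = 0.0693), and held in 8 of 15 alternative settings. In the lactate mice the log2 fold change was 0.45 ± 0.20 (95% interval 0.03 to 0.87; edgeR adjusted p = 0.156), which did not pass. Without lactate mouse 4 it was 0.60 with an adjusted p of 0.0495 in edgeR.

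Idi1 encodes isopentenyl diphosphate isomerase, which interconverts the isoprene units from which the carbon chain is built. It was at 12.3, 10.5, 12.2 and 12.7 CPM in the sham mice, 11.6, 16.2, 24.8 and 15.7 in the vehicle mice, and 10.68, 21.4, 15.9 and 8.81 in the lactate mice. Vehicle mice 2, 3 and 4 and lactate mice 2 and 3 were above all sham mice, and vehicle mouse 1 was inside the sham range. The log2 fold change from sham was 0.55 ± 0.22 in vehicle mice (95% interval 0.06 to 1.04; edgeR adjusted p = 0.300) and 0.29 ± 0.24 in lactate mice (−0.23 to 0.81; adjusted p = 0.486), and neither passed. The group means were 11.9 ± 0.984, 17.1 ± 5.53 and 14.2 ± 5.68 CPM (SD, n = 4 each), from 76 to 199 reads per mouse.

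Fdft1 encodes squalene synthase, the first enzyme committed to sterols. The sham mice had 126, 129, 116 and 110.0 CPM, the vehicle mice 151, 147, 178 and 182 CPM, and the lactate mice 162, 210.0, 204 and 140.2 CPM. All 8 ischemic mice were above all 4 sham mice, which was true of no other of the 7 genes. The means were 120.1 ± 8.79 CPM in sham (SD, n = 4), 164 ± 17.9 in vehicle and 179 ± 33.6 in lactate mice. Fdft1 rose in the lactate mice, with a log2 fold change of 0.61 ± 0.13 (95% interval 0.32 to 0.89; edgeR adjusted p = 0.00993). This call held in 15 of 15 alternative settings, which included leaving out each of the 8 mice (adjusted p between 0.000877 and 0.0366). In the vehicle mice the log2 fold change was 0.49 ± 0.13 (0.21 to 0.76) and the edgeR adjusted p = 0.0946, so that the gene did not pass there. Without vehicle mouse 1 it was 0.53 with an edgeR adjusted p of 0.0414.

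Sqle encodes squalene epoxidase, which puts the first oxygen on squalene. Its levels were 18.9, 17.3, 23.4 and 19.5 CPM in sham mice, 17.98, 26.9, 29.2 and 26.0 in vehicle mice, and 17.7, 30.3, 20.3 and 16.8 in lactate mice. Vehicle mice 2, 3 and 4 and lactate mouse 2 exceeded all sham mice, and the groups overlapped. The log2 fold change was 0.38 ± 0.18 in vehicle mice (95% interval −0.02 to 0.77; edgeR adjusted p = 0.393) and 0.14 ± 0.19 in lactate mice (−0.27 to 0.55; adjusted p = 0.684). Lss encodes lanosterol synthase, which folds the chain into the sterol rings, and was the gene of the 7 with the fewest reads along with Insig1, 24 to 60 per mouse. It was at 5.27, 3.79, 4.89 and 3.95 CPM in sham mice, 5.62, 5.57, 6.72 and 4.99 in vehicle mice, and 3.25, 6.71, 5.67 and 4.06 in lactate mice. Lactate mice 1 and 2 held the lowest and the highest values of that group, and vehicle mouse 4 was below the highest sham mouse. For Lss the log2 fold change was 0.40 ± 0.22 in vehicle mice (−0.08 to 0.87; edgeR adjusted p = 0.465) and 0.17 ± 0.25 in lactate mice (−0.37 to 0.72; adjusted p = 0.714). The SD of Lss among sham mice was 16.1% of the mean, against 16.8% from counting error. The smallest difference that could be found at this depth was not tested.

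Cyp51 encodes the lanosterol demethylase, the next step on the way to cholesterol. It was at 23.1, 17.5, 19.4 and 17.9 CPM in sham mice, 22.0, 30.3, 42.5 and 23.9 in vehicle mice, and 21.6, 32.7, 26.8 and 19.2 in lactate mice. Sham mouse 1 was above vehicle mouse 1 and above lactate mice 1 and 4, and the other 5 ischemic mice were above all sham mice. The means were 19.5 ± 2.54, 29.7 ± 9.23 and 25.1 ± 5.96 CPM (SD, n = 4 each). The vehicle mice had the largest fitted difference of the 7 genes in any comparison with sham, 0.64 ± 0.21 on the log2 scale or 1.56-fold (95% interval 0.19 to 1.10), but the edgeR adjusted p was 0.193. In lactate mice it was 0.40 ± 0.17 (0.03 to 0.77; edgeR adjusted p = 0.155). Without vehicle mouse 3 the log2 fold change of the vehicle mice was 0.43.

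Insig1, which retains the Scap and SREBP complex in the endoplasmic reticulum, varied most between mice. The sham mice had 5.80, 8.36, 12.4 and 10.9 CPM, the vehicle mice 5.53, 15.3, 26.0 and 6.46 CPM, and the lactate mice 3.25, 9.82, 10.9 and 5.45 CPM. Vehicle mice 2 and 3 were above all sham mice, vehicle mouse 1 and lactate mice 1 and 4 were below all of them, and the rest lay inside the sham range. The SD was 30.8% of the mean in sham, 71.6% in vehicle and 49.3% in lactate mice, against 9.65% to 13.0% from counting error. The log2 fold change was 0.54 ± 0.43 in vehicle mice (95% interval −0.39 to 1.47; edgeR adjusted p = 0.635) and −0.31 ± 0.34 in lactate mice (−1.04 to 0.41; adjusted p = 0.598). Vehicle mouse 3 decided the first of these, which was −0.003 without it.

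**Figure D1:**
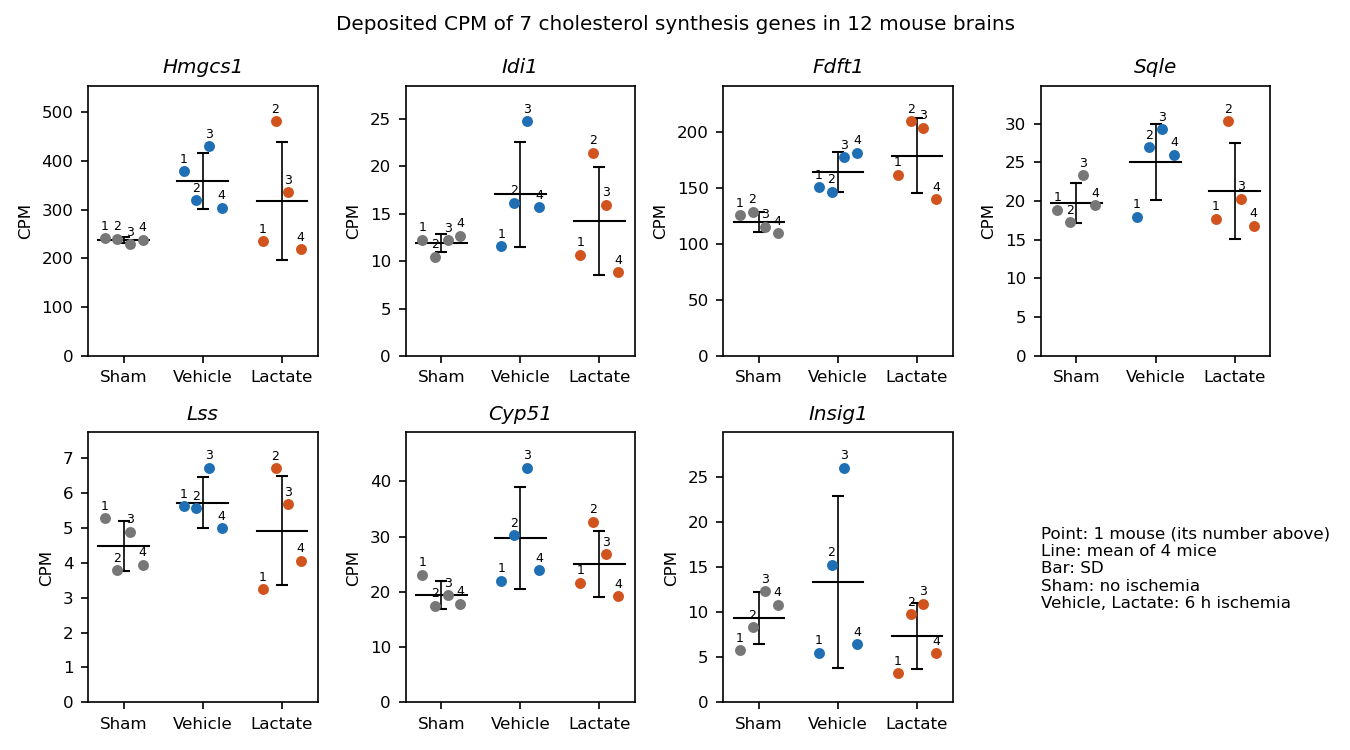
Deposited CPM of each of the 7 genes (vertical axis, from 0) in the sham, vehicle and lactate mice. Each point is 1 mouse with its number, the horizontal line is the mean of 4 mice and the bar the SD; Fdft1 is the gene whose 8 ischemic mice all lie above the sham mice, and vehicle mouse 3 and lactate mouse 2 are the top of their group in 6 panels each.

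Counted over the 7 genes, all of which passed the filter on low counts, 1 was called higher in the vehicle mice than in sham, where 1.29% of 17019 genes tested were called higher. The study's limits ask for a change of 1.5-fold or more and P under 0.05, and its methods do not say whether that P is the adjusted one. Taken here at the unadjusted p in edgeR, these limits passed 2 genes, both higher (Hmgcs1 and Cyp51), against 6.5% higher and 3.01% lower of all genes. At an unadjusted p under 0.05 alone 4 were higher (Hmgcs1, Fdft1, Cyp51 and Idi1), against 8.58% higher and 5.21% lower of all genes, and for Hmgcs1 and Fdft1 the vehicle mice were wholly above sham, as for 4.14% of all genes, with 4.89% wholly below. All 7 fitted differences were above 0, as were 50.4% of all genes, and their median was 0.54 on the log2 scale beside 0.003 over all genes tested. Without vehicle mouse 3 that median was 0.32. The count of calls was 0 without any 1 sham mouse or without vehicle mouse 3, and 2 (Hmgcs1 and Fdft1) without vehicle mouse 1.

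In the lactate mice against sham, 1 of the 7 genes was called higher, Fdft1, where 8.76% of 17262 genes tested were called higher and 3.54% lower. The study's limits also passed 1, against 11.9% higher and 5.65% lower of all genes. An unadjusted p under 0.05 was reached by 3 (Fdft1, Cyp51 and Hmgcs1), against 15.6% higher and 11.4% lower, and Fdft1 alone did not overlap with sham, against 10.4% of all genes that were wholly above and 8.74% wholly below. Of the 7 differences 6 were above 0, Insig1 being the other, against 46.9% of all genes, and the median was 0.29 on the log2 scale beside −0.03 over all genes. Without lactate mouse 2 the median was 0.02, and without lactate mouse 4 it was 0.47 with 2 genes called (Fdft1 and Hmgcs1).

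Between the lactate and the vehicle mice, which asks whether lactate changed what ischemia did, none of the 7 genes was called by edgeR, DESeq2 or limma-voom, and none reached an unadjusted p under 0.05 in edgeR. Over all 17419 genes tested, 0% were called higher and 0.00574% lower, while 4.91% were higher and 3.93% lower at the unadjusted p. The study's limits passed 0 of the 7 genes, against 3.76% of all genes higher and 2.47% lower. For each of the 7 genes the ischemic groups overlapped, and 2.99% of all genes were wholly higher and 1.83% wholly lower. Of the 7, 1 had a fitted value above 0 and 6 below, against 45.6% of all genes above 0. Insig1 had the widest interval, a log2 fold change of −0.86 ± 0.49 (95% interval −1.93 to 0.20; edgeR adjusted p = 0.633). Cyp51 was at −0.26 (−0.76 to 0.25), Sqle at −0.25 (−0.73 to 0.23), Idi1 at −0.28 (−0.93 to 0.37), Lss at −0.24 (−0.81 to 0.33) and Hmgcs1 at −0.19 (−0.68 to 0.29). Fdft1 was the gene above 0, at 0.10 (−0.22 to 0.43). Each of the 7 intervals includes 0. Those of the 6 genes below 0 reach down to −0.68 or lower and that of Fdft1 reaches up to 0.43, so that they do not show the ischemic groups to be alike. The median was −0.25, against −0.03 over all genes, −0.10 without vehicle mouse 3 and −0.46 without lactate mouse 2. It was −0.15 without lactate mouse 4 and −0.17 without lactate mouse 1.

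**Figure D2:**
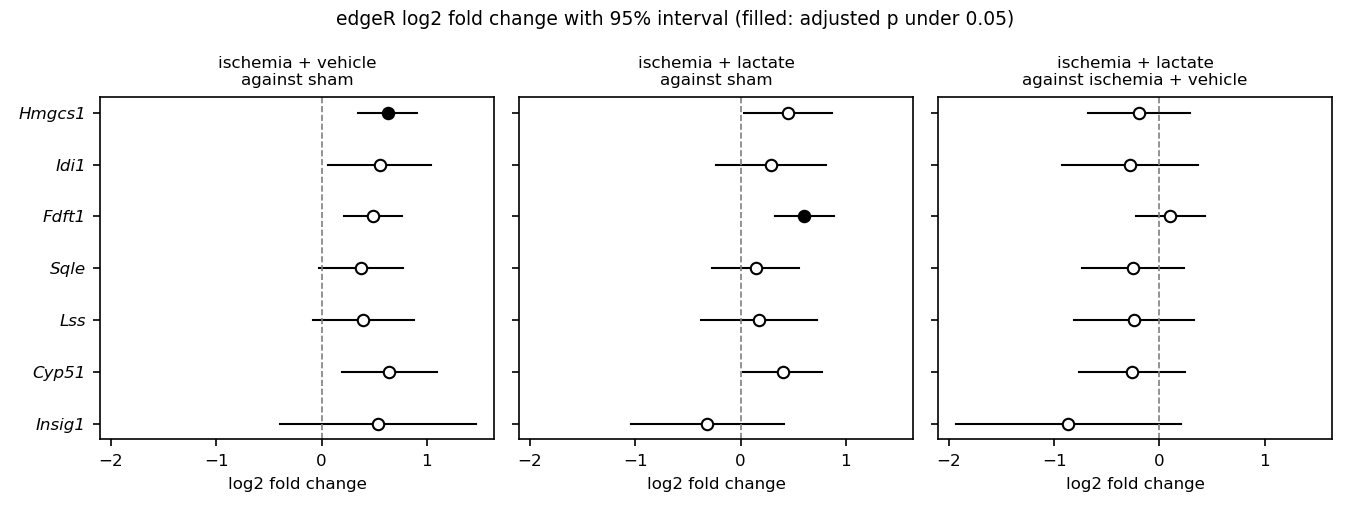
Log2 fold change (horizontal axis) of the 7 genes in the 3 comparisons, as points with 95% intervals from edgeR; filled points have an adjusted p under 0.05. Hmgcs1 in the vehicle mice (0.63) and Fdft1 in the lactate mice (0.61) are the filled points, and each interval between the ischemic groups spans 0.

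Mice of 1 ischemic group differed from each other, and several of the 7 genes were high or low in the same mice. Vehicle mouse 3 had the highest value of the vehicle mice for 6 of the 7 genes (Fdft1 being the other), against 25.28% of 17936 genes with enough counts. Lactate mouse 2 had the highest value of the lactate mice for 6 of the 7 (Insig1 being the other), against 30.14% of genes. At the other end, lactate mouse 4 was lowest of its group for 5 of the 7 genes, against 22.52% of all genes, and vehicle mouse 1 for 4, against 33.46%. Lactate mouse 1 was lowest for the other 2, near its share over all genes of 28.33%. Vehicle mice 2 and 3 were above every sham mouse in all 7 genes, vehicle mouse 4 in 5 and vehicle mouse 1 in 3. Among lactate mice the count was 6 for mouse 2, 5 for mouse 3, and 1 each for mice 1 and 4, the gene being Fdft1, while in a single ischemic mouse 21.7% to 28.3% of all genes were above every sham mouse. These mice were singled out after their values were seen.

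The mean log2 ratio of the 7 genes to the sham mean (with 1 CPM added) puts this in 1 value per mouse. It was −0.09 to 0.10 in the sham mice. In vehicle mice 1 to 4 it was 0.10, 0.45, 0.86 and 0.25, and in lactate mice 1 to 4 it was −0.19, 0.65, 0.39 and −0.18. Thus 3 vehicle mice and 2 lactate mice were above the sham range, and lactate mice 1 and 4 were below it. The same mean over 16 other genes of cholesterol synthesis was highest in the same mice, 0.42 in vehicle mouse 3 and 0.41 in lactate mouse 2. Over 9 genes that control SREBP it ran from −0.16 to 0.03 in the ischemic mice, and over 11 genes of the fatty acid arm from −0.18 to 0.10. The total was 8032898 counts in vehicle mouse 3 and 8350471 in lactate mouse 2, and the part of depth was not tested.

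**Figure D3:**
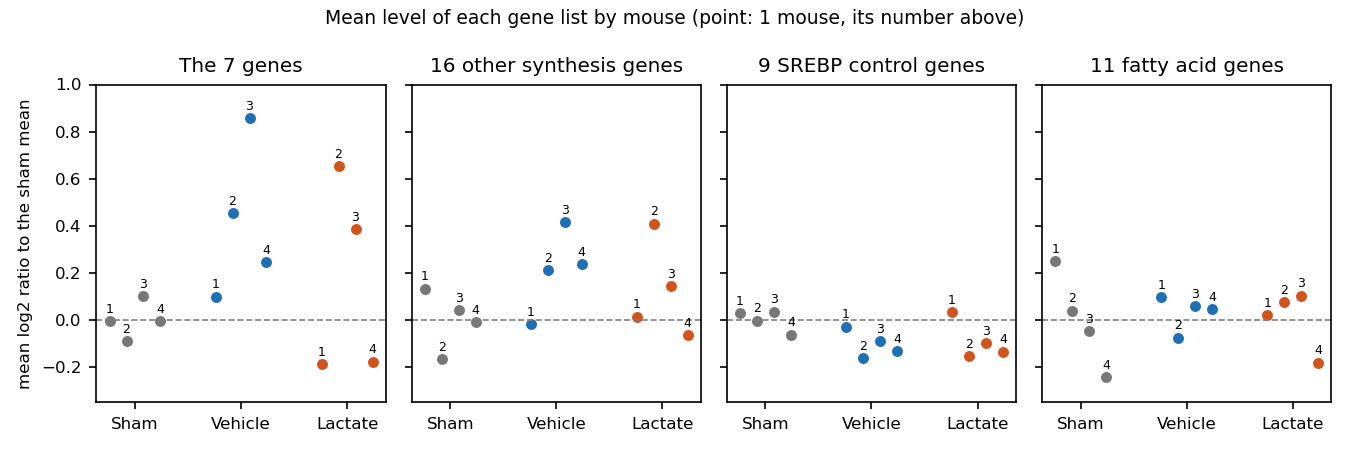
Mean log2 ratio to the sham mean (vertical axis) in each mouse, for the 7 genes, 16 other synthesis genes, 9 SREBP control genes and 11 fatty acid genes; each point is 1 mouse with its number. The 7 genes reach 0.86 in vehicle mouse 3 and 0.65 in lactate mouse 2, with lactate mice 1 and 4 below 0, while the SREBP control genes stay between −0.16 and 0.03 in the ischemic mice.

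With the group means taken out, the 21 pairs of the 7 genes had Pearson correlations of 0.30 to 0.90 over the 12 mice (median 0.69), and 19 were above 0.5. The points share library, depth and tissue piece, so this is a description without a test. Idi1 and Cyp51 were closest (0.90), followed by Sqle and Idi1 (0.86) and by Hmgcs1 and Lss (0.82). Insig1 and Fdft1 were farthest apart (0.30), and Sqle and Fdft1 had 0.48.

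Among 13424 genes with a symbol, those whose level over the 12 mice was most like the mean of the 7 were ranked by Pearson correlation. The first 8 were Atf3 (0.95), Sc5d (0.94), Dnajb1 (0.94), Lins1 (0.93), Stmn4 (0.93), Gm20481 (0.92), Gadd45g (0.91) and Ccl3 (0.91), and 0.551% of the genes had 0.8 or more. Sc5d encodes the sterol desaturase late in cholesterol synthesis, and was at 34.7 to 40.1 CPM in sham, 36.7 to 51.7 in vehicle and 32.6 to 50.9 in lactate mice. Atf3, a stress-induced transcription factor, ran from 0 to 1.22 CPM in sham, 2.25 to 46.2 in vehicle and 0.696 to 15.4 in lactate mice. Dnajb1, a heat-shock co-chaperone, ran from 9.63 to 11.3 CPM in sham, 18.5 to 69.0 in vehicle and 12.4 to 45.4 in lactate mice. Ccl3 encodes a chemokine and Gadd45g a stress-inducible protein. The 4 genes with the most opposite course were Lrrc3b (−0.95), Armt1 (−0.90), Ankrd63 (−0.87) and Acot13 (−0.86). After subtracting group means the first 5 were Atf3 (0.94), Gm20481 (0.94), Sc5d (0.93), Nek3 (0.92) and Procr (0.92), and Srebf2 had 0.81.

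Of the 16 other cholesterol synthesis genes, all tested, 2 rose in the vehicle mice and 2 in the lactate mice, and 14 did not pass in each comparison, where 1.29% and 8.76% of all genes were called higher. Pmvk, the phosphomevalonate kinase, had 99.8, 97.9, 102 and 85.3 CPM in sham, 182, 132, 167 and 145 in vehicle, and 129, 185, 125 and 109 in lactate mice. All 8 ischemic mice were above sham, and it rose in both groups, by a log2 fold change of 0.73 ± 0.14 in vehicle mice (edgeR adjusted p = 0.0176) and 0.54 ± 0.15 in lactate mice (adjusted p = 0.0299). Mvd, the mevalonate diphosphate decarboxylase that acts right before Idi1, had 13.4 to 14.2 CPM in sham and 30.9, 22.0, 32.6 and 18.2 CPM in vehicle mice, a rise of 0.94 ± 0.20 (edgeR adjusted p = 0.0350). In the lactate mice Mvd was at 8.65, 34.6, 23.1 and 11.5 CPM, with mice 1 and 4 below all sham mice and mice 2 and 3 above them, and the log2 fold change of 0.52 had an adjusted p of 0.340. Hsd17b7, a sterol ketoreductase acting after Cyp51, rose in the lactate mice by 0.91 ± 0.25 (edgeR adjusted p = 0.0328), from 6.23 ± 1.05 to 11.4 ± 4.40 CPM (SD, n = 4 each). Each of these 4 calls was lost in 5 to 8 of 15 alternative settings. The Pmvk and Mvd calls in vehicle mice were lost without any 1 sham mouse or without vehicle mouse 3, that of Mvd also without vehicle mouse 2, with all 12 mice in 1 fit (adjusted p = 0.185) and with the replicate number as a block (adjusted p = 0.0715). In lactate mice both calls were lost without sham mouse 1, 3 or 4 or without lactate mouse 2, that of Pmvk also without lactate mouse 1, and that of Hsd17b7 also without sham mouse 2 or lactate mouse 3.

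Other steps of the pathway did not pass. Msmo1, which acts after Cyp51, had a log2 fold change of 0.60 (edgeR adjusted p = 0.284) in vehicle and 0.37 (0.149) in lactate mice, and Dhcr7, a late reductase, 0.58 (0.332) and 0.35 (0.293). Fdps, which supplies Fdft1 with its substrate, had 0.29 (adjusted p = 0.410) and 0.29 (0.195), each for vehicle and lactate mice against sham. Not all steps went up. Of the 16 genes 10 were above 0 and 6 below in vehicle mice, against 50.4% of all genes above 0. The 6 were Acat2, Ggps1, Nsdhl, Tm7sf2, Lbr and Ebp, with Lbr lowest at −0.21. In lactate mice 12 were above 0 and 4 below, against 46.9% of all genes above 0. The median over the 16 genes was 0.31 in vehicle and 0.24 in lactate mice on the log2 scale. Between the ischemic groups none of the 16 was called and the median was −0.11. Mvk, the mevalonate kinase, was the one past the study's limits there, with a log2 fold change of −0.72 (edgeR unadjusted p = 0.0101, adjusted p = 0.496).

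**Figure D4:**
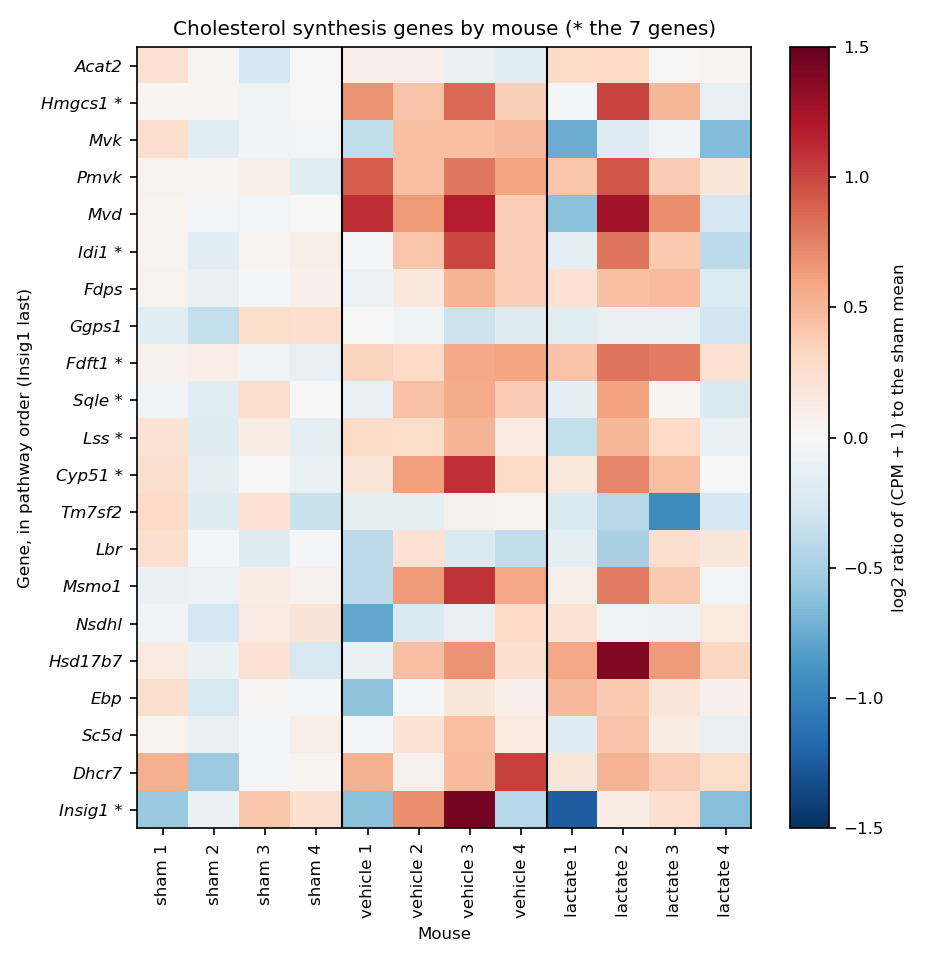
Log2 ratio of CPM (with 1 CPM added) to the sham mean, as colour, for 21 genes of the pathway (rows in pathway order, Insig1 last, the 7 genes starred) in the 12 mice (columns). The columns of vehicle mouse 3 and lactate mouse 2 hold the highest ratios, 1.43 for Insig1 and 1.39 for Hsd17b7, and lactate mouse 1 the lowest, −1.24 for Insig1.

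**Figure D5:**
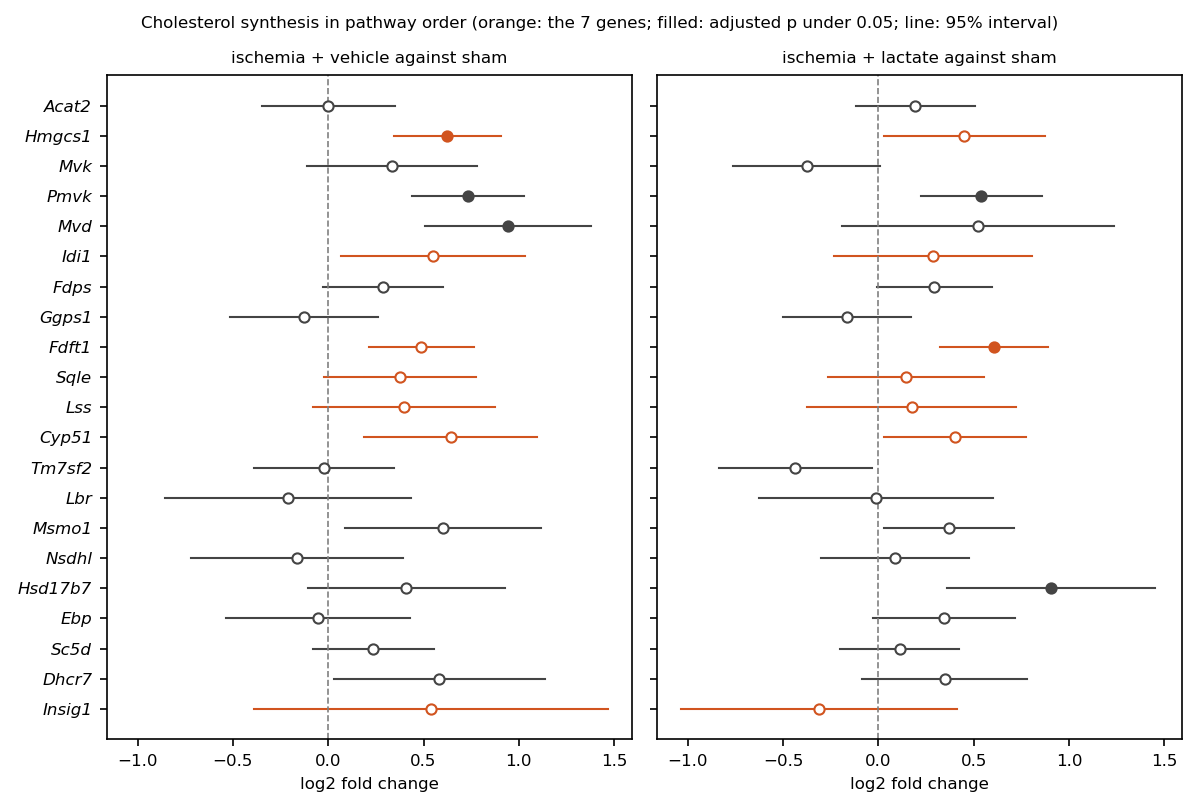
Log2 fold change from sham (horizontal axis) with 95% intervals from edgeR for the same genes in pathway order, vehicle mice on the left and lactate mice on the right; orange marks the 7 genes and filled points an adjusted p under 0.05. Filled points are Hmgcs1, Pmvk and Mvd in the vehicle mice and Fdft1, Pmvk and Hsd17b7 in the lactate mice.

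None of 9 SREBP control genes was called by edgeR in any of the 3 comparisons. At an unadjusted p under 0.05 in edgeR, 1 was lower in vehicle mice against sham, where 8.58% of all genes were higher and 5.21% lower. In lactate mice against sham 0 reached it, where 15.6% were higher and 11.4% lower. Between the ischemic groups 1 was higher, where 4.91% were higher and 3.93% lower. Over all genes 1.29% were called higher and 0.182% lower in vehicle mice, so that 0 of 9 is near the general share there, and 8.76% and 3.54% in lactate mice. Between the ischemic groups the shares were 0% and 0.00574%, so that a count of 0 was the general result there. The 9 genes' median log2 fold change was −0.02 in vehicle and −0.10 in lactate mice. Srebf2, which encodes SREBP-2, was at 26.3 to 31.1 CPM in sham, 31.9 to 38.7 in vehicle and 27.5 to 39.3 in lactate mice. The vehicle mice did not overlap with sham, yet the log2 fold change of 0.28 ± 0.14 had an edgeR adjusted p of 0.403. In lactate mice Srebf2 was at 0.23 (adjusted p = 0.318). Scap had 0.19 and −0.21, Insig2 −0.12 and 0.32, and Srebf1, whose product drives fatty acid synthesis, 0.07 and −0.19. In the fatty acid arm no gene was called, of 10 tested in vehicle mice against sham, 11 in lactate mice against sham and 10 between the ischemic groups, with Fasn, the fatty acid synthase, at 0.00 and 0.03, Scd2 at 0.11 and 0.06, and Scd1 at 0.49 (edgeR adjusted p = 0.253) and 0.31 (0.280).

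Of 10 uptake genes tested, 0 were called by edgeR in the vehicle mice, near the share over all genes. At an unadjusted p under 0.05 in edgeR 1 was higher and 0 lower, near the 8.58% and 5.21% of all genes. Their median log2 fold change was 0.20. In the lactate mice 2 of the 10 were called higher and 1 lower, against 8.76% and 3.54% of all genes. Scarb1, a scavenger receptor, rose by 0.66 ± 0.20 (edgeR adjusted p = 0.0438) and Stard4, a sterol carrier, by 0.67 ± 0.20 (adjusted p = 0.0473), while Vldlr fell by 0.64 ± 0.20 on the log2 scale (adjusted p = 0.0485). Calls of these 3 genes held in 6, 6 and 4 of 15 alternative settings, and in 1, 2 and 1 of the 8 in which a mouse was left out.

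Of 13 genes of efflux, storage and turnover, Ch25h, which makes 25-hydroxycholesterol, an oxysterol that blocks SREBP processing, had few reads in sham. It was at 0.132 to 0.493 CPM in sham (1 to 4 reads per mouse), 1.69 to 4.48 in vehicle and 3.01 to 4.35 in lactate mice, with no overlap. The edgeR adjusted p was 0.00440 in vehicle and 9.03e-05 in lactate mice. Ch25h passed the filter on low counts only through the ischemic mice, without any 1 of which it had no value. A gene tested for that reason had to differ, so its values are a description, and no fold is given because of the few sham reads. Cyp27a1, a sterol hydroxylase, fell by 0.85 ± 0.25 on the log2 scale in lactate mice (edgeR adjusted p = 0.0403), a call lost without any 1 of the 8 mice. Apoe, Abca1 and Cyp46a1, for cholesterol transport, export and removal from neurons, were not called, with log2 fold changes of 0.16, 0.52 and 0.29 in vehicle mice and −0.04, 0.25 and 0.19 in lactate mice. Of the branches that leave the pathway, Fntb, a subunit of protein farnesyltransferase, fell by 0.44 ± 0.12 in lactate mice (edgeR adjusted p = 0.0264), a call that held in 11 of 15 settings and was lost without sham mouse 2 or lactate mouse 1 or 2.

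Marker levels moved beside the 7 genes in some mice, and their part in the results was not tested. The summed CPM of 6 oligodendrocyte markers was 7064 to 11300 in sham, 5573 to 10460 in vehicle and 8859 to 9905 in lactate mice, overlapping between groups. In lactate mice against sham, edgeR called 2 of the 6 lower and 0 higher, against 3.54% and 8.76% of all genes. Also 2 lay wholly below sham, against 8.74% of all genes. The 6 neuron markers summed to 3779 to 3949, 3103 to 4990 and 3376 to 3771. Vehicle mouse 1 was above all sham mice, and vehicle mice 2, 3 and 4 and all 4 lactate mice were below them. Against sham, 3 of the 6 had a log2 fold change above 0 and 3 below in each ischemic group. The 6 astrocyte markers reached 592 to 889 in sham, 794 to 871 in vehicle and 960 to 1014 in lactate mice, and the 6 microglia markers 158 to 189.5, 128 to 155 and 196 to 215, so both sums were highest in the 4 lactate mice. In the astrocyte sum 1 of the 6 markers, Gfap, was called, in vehicle and in lactate mice against sham (edgeR adjusted p = 0.0201 and 2.01e-06; 34.5 to 73.7 CPM in sham, 91.7 to 255.5 in vehicle and 248 to 334 in lactate mice), and the median log2 fold change of the 6 was 0.07 and 0.02. Of the microglia markers Cx3cr1 and P2ry12 fell in vehicle mice, with log2 fold changes of −1.21 and −1.01 (edgeR adjusted p = 0.0201 and 0.0275). In lactate mice C1qa rose and P2ry12 fell, with log2 fold changes of 1.40 and −1.10 (edgeR adjusted p = 0.000323 and 0.00265). The 5 endothelial markers summed to 122 to 133, 121 to 162 and 166 to 208 CPM, and single markers went both ways. In lactate mice against sham edgeR called 1 of the 5 higher and 1 lower, against 8.76% and 3.54% of all genes. In vehicle mice 2 were higher and 2 lower at an unadjusted p under 0.05 in edgeR, against 8.58% and 5.21% of all genes. The 5 neutrophil markers summed to 3.12 to 4.88 CPM in sham, with Ly6g at 0 in all sham mice, to 14.8, 49.99, 69.3 and 11.2 in vehicle mice 1 to 4, and to 21.6, 19.8, 38.9 and 18.3 in lactate mice 1 to 4. Of the vehicle mice, mouse 3 was highest for these and for 6 of the 7 genes. Of the lactate mice, mouse 3 was highest for these and mouse 2 for 6 of the 7. These mice were singled out after their values were seen, and no link was tested. The 5 blood markers were lower in ischemic mice (333 to 500.4) than in sham (560.4 to 633). Vehicle mouse 2 had 1835 CPM of choroid plexus markers, almost all from Ttr (1817 CPM), against 1.22 to 18.4 in the other 11 mice.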

How the data were processed

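RNA of 12 mouse brains was sequenced as nanopore cDNA. The authors deposited 1 table with a raw count per gene and mouse and a CPM value per gene and mouse, on GRCm38 per the labels. The deposited CPM equals each count over that mouse's summed counts, with no further scaling. The submitters' processing notes name DESeq 1.10.1. The table also holds the authors' fold changes and p-values, which were not used. From 31208 genes, 4 lines without a gene were left out and 27 symbols turned into dates were restored; 8652 entries are new loci. Counts per mouse ran from 6815920 to 10677224. Counting error of single genes covers counting only.

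The 7 genes and all lists were chosen with earlier results of these data known. The counts were tested with edgeR 4.0.16 (quasi-likelihood, TMM factors 0.96 to 1.03) in R 4.3.3, with the 8 mice of the 2 groups compared in each fit, no covariates and a filter of 1 CPM in at least 4 of 8 mice. Calls have a Benjamini-Hochberg adjusted p under 0.05 over all genes tested. SE is the log2 fold change over the root of F. Named genes are the 7, every listed gene that was called, a set of listed genes taken whatever their values (such as Msmo1, Srebf2, Scap and Fasn; some of this set are not reported here), and those most and least like the 7 by correlation over 12 mice. Alternatives were DESeq2 1.42.0, limma 3.58.1 (voom with quality weights), RLE size factors, no filter, all 12 mice in 1 fit, Ensembl genes only, the replicate number as a block, the study's limits, and leaving out each mouse. For listed genes outside the 7 these alternatives were added after seeing the data. Of 22036 Ensembl identifiers, 22022 were found in GENCODE mouse release 21. Scripts used Python 3.11.15, pandas 2.3.3 and matplotlib 3.10.9, and the tests were tested on simulated data. Replicate numbers name different mice; nothing in the labels pairs them across groups.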

Additional observations from a re-analysis of the deposited data

Results flagged for a closer look

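Of 165 groups of 4 mice checked, 9 had a mouse far from the other 3 (Dixon's test of the gap over the range), and chance flags about 1 in 20 groups. None was in the 7 genes. Scap was at 20.5 CPM in vehicle mouse 1 (others 11.6 to 13.1) and Vldlr at 6.72 CPM in vehicle mouse 3 (others 14.6 to 15.6). Dnajb1, among the genes most like the 7, was at 69.0 CPM in vehicle mouse 3 (others 18.5 to 25.6), and Armt1 at 12.5 CPM in sham mouse 2 (others 15.3 to 15.7). Gm20481 was at 0.123 CPM in sham mouse 4, which is 1 read, with the other sham mice at 0. A single read against 0 is always flagged by this rule, so that flag says nothing about the mouse.

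The summed neuron markers were at 4990 CPM in vehicle mouse 1 (others 3103 to 3331), the oligodendrocyte markers at 9905 CPM in lactate mouse 1 (others 8859 to 9006) and the neutrophil markers at 38.9 CPM in lactate mouse 3 (others 18.3 to 21.6). The choroid plexus markers were at 1835 CPM in vehicle mouse 2, against 3.67 to 14.3 in the other vehicle mice.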

How the results depend on the processing

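Lss and Insig1 had the lowest counts, with as few as 24 reads in a mouse. The SD of Lss among sham mice was about that of counting error, whereas the SD of Insig1 exceeded counting error in each group. Of the calls among the 7 genes, Fdft1 in lactate mice held in 15 of 15 alternatives and Hmgcs1 in vehicle mice in 8 of 15 (adjusted p 0.00113 to 0.135). No value that was called changed sign under any alternative, and of the uncalled ones Insig1 in vehicle mice, and Lss and Sqle in lactate mice, crossed 0 in 1 alternative each. The cause of the changes below was not tested.

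For vehicle mice against sham the main count of genes called among the 7 was 1. It was 2 with DESeq2, with limma-voom and with the study's limits, 0 with all 12 mice in 1 fit, and 0 to 2 when a mouse was left out. The median log2 fold change of the 7 was 0.32 to 0.60 when a mouse was left out. For lactate mice against sham the count was 1 in the main fit and 1 to 2 when a mouse was left out, and the median was 0.02 to 0.47. Between the ischemic groups the count was 0 in every alternative and the median −0.46 to −0.10 when a mouse was left out. Of the 16 other synthesis genes, 2 were called in vehicle mice against sham, 1 with all 12 mice in 1 fit, and 0 to 3 when a mouse was left out. In lactate mice against sham 2 were called, 1 with limma-voom, 1 with the study's limits, and 0 to 3 when a mouse was left out. Between the ischemic groups the study's limits passed 1 of the 16, against 0 called.

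With the replicate number as a block, the count among the 7 in vehicle mice against sham was 0 (Hmgcs1 adjusted p = 0.0693) and among the other 16 genes 1, and no other count of calls over these lists changed. Mice with the same number correlated at −0.17 to 0.17 between vehicle and sham, −0.02 to 0.13 between lactate and sham and −0.13 to 0.04 between the ischemic groups. In that order, 2, 2 and 0 of 4 pairs correlated best with their own number. With 4 pairs per comparison these values cannot decide whether the numbers pair the mice, and the labels name no pairing.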
